A study of Mus musculus with 7 samples.

Results

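The transcripts described here encode the BBSome with its helpers and the gate at the base of the cilium, in mouse eye RNA with and without Agbl5. They are 33 of the 54532 genes in the deposited table, chosen by gene name from an agreed list and kept as 2 classes. The BBSome class held 13 genes: 8 core subunits, 3 chaperonin-like assembly factors, the small GTPase gene Arl6 and the regulator Lztfl1. The transition zone class held 20 genes: 6 nephronophthisis (NPHP) and Cep290 genes, 12 genes of the Meckel syndrome (MKS) complex and 2 photoreceptor cilium genes, Lca5 and Spata7. Each name matched a single row, and each of the 33 passed the filter of a mean of 1 FPKM (fragments per kilobase of gene, scaled to library depth, a level per length) over the 7 libraries.

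The libraries came from mice of 3 Agbl5 genotypes: 3 knockout, 2 heterozygous and 2 wildtype. The tissue label was eyeball, while the RNA protocol spoke of retina, and polyadenylated RNA was sequenced with a kit that does not mark strand. No treatment was named, and the strain, the age, the kind of knockout allele and whether replicates were separate animals were not given in the sources used here, so the p-values measure the spread between these libraries, which may be technical. CCP5, the product of Agbl5, takes off the branch-point glutamate of modified tubulin, and the series asked what its loss does in photoreceptors and their cilia.

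The outer segment of a photoreceptor is a modified primary cilium, joined to the cell body by the connecting cilium, which corresponds to the transition zone of other cilia. NPHP and MKS proteins and CEP290 form the gate there, which controls which membrane proteins enter or leave. The BBSome is a coat-like complex that ARL6 in its GTP-bound state brings to membranes, and it carries membrane proteins across this gate and out of the cilium. Variants in many of these genes cause Bardet-Biedl, Joubert, Meckel or Senior-Loken syndrome or Leber congenital amaurosis, in most of which the retina degenerates.

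Whole reads could be recovered from the FPKM, and their sums ran from 11912956 to 13938242 per library. Agbl5 stood at 9.89 and 8.56 FPKM in wildtype, 4.21 and 5.34 in heterozygous and 1.53, 1.73 and 1.26 in knockout libraries, in the order of the labels, with exons of Ost4 overlapping it on the other strand. The summed level of 8 cone photoreceptor markers lay between 468 and 589 FPKM in the 7 libraries, so all held retina, and Rpe65 of the pigment epithelium lay between 3.75 and 12.9 FPKM. Lens transcripts set 2 libraries apart: Cryaa reached 1733 FPKM in heterozygous 1 and 2541 FPKM in knockout 1, against 1.11 to 12.3 FPKM in the other 5. Xist reached 181 FPKM in wildtype 2 and 158 FPKM in knockout 3, whereas it lay between 0.0118 and 0.0381 FPKM elsewhere, so both sexes were among the wildtype and the knockout libraries. Foxj1, the master regulator of motile cilia, was low, between 1.24 and 2.16 FPKM. The libraries hold whole tissue, where fewer cells of a type and less RNA per cell cannot be told apart.

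Arl6 was the 1 member that limma called between knockout and all controls, with the higher level in knockout. ARL6, also called BBS3, is the GTPase that recruits the BBSome to membranes. Its transcript stood at 42.9 and 49.4 FPKM in wildtype 1 and 2, at 44.4 and 53.3 FPKM in heterozygous 1 and 2, and at 65.8, 69.6 and 67.9 FPKM in knockout 1, 2 and 3. Every knockout library lay above every control library, and the wildtype and heterozygous libraries overlapped. The mean was 67.7 ± 1.94 FPKM in knockout (SD, n = 3) and 47.5 ± 4.78 FPKM over the pooled heterozygous and wildtype libraries (n = 4), a ratio of 1.43. On the scale of log2(FPKM + 1) the difference was 0.51 ± 0.08 (SE; 95% interval 0.32 to 0.69; limma, adjusted p = 0.0429 over all genes tested). In that comparison limma called 1 of the 13 BBSome genes, against 0.614% of all 15472 tested genes, 0.465% rising and 0.149% falling.

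Against each control genotype alone the Arl6 difference was of like size and missed the threshold. It was 0.55 ± 0.10 against wildtype (adjusted p = 0.155) and 0.47 ± 0.10 against heterozygous (adjusted p = 0.19), in fits with 4 residual degrees of freedom. These comparisons share the knockout libraries, so they are not independent. Heterozygous and wildtype stood at 48.8 ± 6.30 and 46.1 ± 4.65 FPKM (n = 2 each), a difference of 0.08 with an interval from -0.18 to 0.33. Over 16 other settings the Arl6 difference from all controls stayed between 0.39 and 0.56, and it passed the threshold in 4 of them. The smallest value came with FPKM rescaled to a fixed sum per library (TPM), where it was 0.39 (limma, adjusted p = 0.226). On that scale the median difference of all tested genes was -0.12. Without both lens-rich libraries the Arl6 difference was 0.50 (limma, adjusted p = 0.24). Leaving out 1 library took the adjusted p to between 0.0824 (without wildtype 1) and 0.199 (without knockout 2), except that without heterozygous 2 it was 0.0297 in limma.

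Recovered reads on Arl6 ran from 1315 in wildtype 1 to 2061 in knockout 2, so counting error was small beside the difference. The gene lies on chromosome 16 from 59612949 to 59639391 on the minus strand of GRCm38, with 10 merged exons over 2098 bases. An antisense RNA shares 55 of those bases, and its own level lay between 0 and 0.506 FPKM. The gene has a longer protein form known from the eye, and values per gene do not separate its forms. The 250 bases before its most upstream RefSeq start (chr16:59639410-59639659, GRCm38.p6, read 5′ to 3′ on the minus strand) are shown because Arl6 was the one gene of the list that was called. They were 61.2% G and C and held 19 CG pairs.
Arl6: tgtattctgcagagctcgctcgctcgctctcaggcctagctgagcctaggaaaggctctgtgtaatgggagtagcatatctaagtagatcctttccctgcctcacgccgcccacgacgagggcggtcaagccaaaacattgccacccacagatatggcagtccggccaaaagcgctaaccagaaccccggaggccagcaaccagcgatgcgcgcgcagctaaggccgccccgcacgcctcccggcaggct

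Markers of microglia moved along the same split of the libraries. The summed FPKM of 7 microglia markers was 34.5 to 37.6 in knockout and 16.2 to 19.2 in control libraries. Limma called 4 of the 7 higher against all controls, beside 0.465% of all tested genes. The summed cone markers were at 468 to 506 FPKM in knockout and 498 to 589 FPKM in control libraries, which overlapped. Of these 8 markers limma called 0, beside 0.614% of all tested genes. Cone markers give no reading of rods. What part any of these cells have in the Arl6 difference was not tested.

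**Figure D1:**
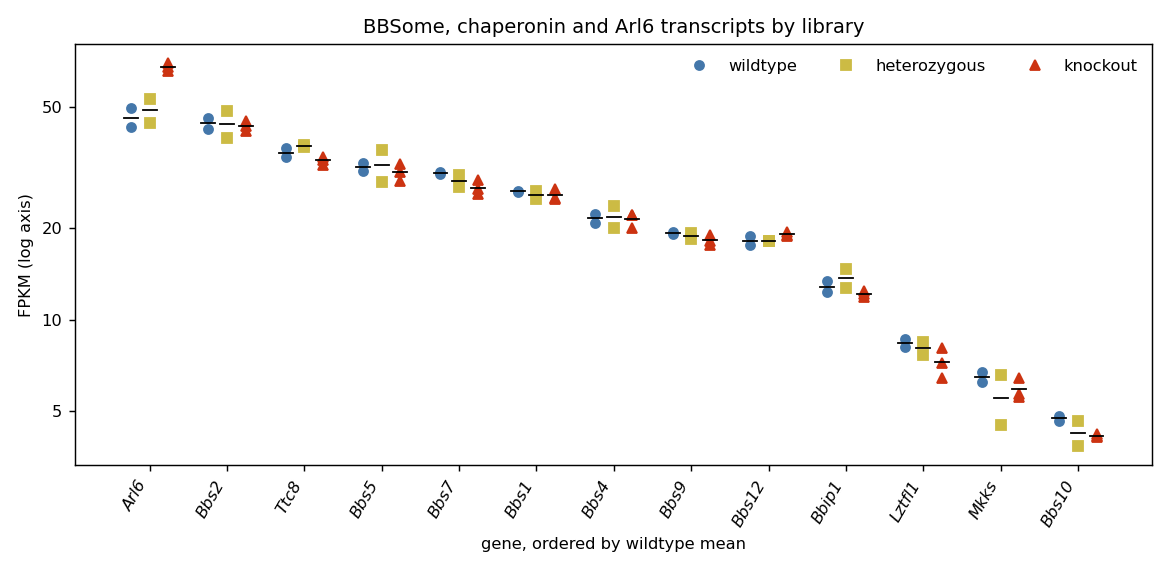
FPKM on a log axis for each of the 13 BBSome class genes, 1 symbol per library by genotype, with short lines at the means. The 3 knockout libraries of Arl6, at 65.8 to 69.6 FPKM, stand clear of its 4 controls, at 42.9 to 53.3 FPKM, and those of Bbs12 lie just above its controls.

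The 8 core subunits of the BBSome stood near the same level in every genotype, and none was called in any of the 4 comparisons. Bbs2 had the highest level of them, with 46.2 and 42.4 FPKM in wildtype, 39.4 and 48.3 FPKM in heterozygous and 43.3, 41.7 and 44.8 FPKM in knockout libraries. Bbs2 was above Ttc8, the BBS8 gene, in 7 of 7 libraries without overlap of their ranges. Ttc8, Bbs5 and Bbs7 followed with wildtype means of 35.4, 31.8 and 30.3 FPKM, and each overlapped its neighbour over the 7 libraries. Bbs1, which binds ARL6, stood at 26.4 FPKM, Bbs4 at 21.5 FPKM and Bbs9 at 19.3 FPKM, and Bbip1, the smallest subunit, was last at 12.9 FPKM. The FPKM of the highest and the lowest core subunit thus differed by 2.68-fold to 3.79-fold within a library. For most genes the length behind FPKM was that of all merged exons. An order of genes by FPKM therefore depends on annotated length as well as on transcript number. The lengths used here gave no whole reads for Bbs1 and Bbip1.

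Between knockout and all controls each of the 8 core subunits had a difference below 0, from -0.12 to -0.02 in log2, and none was called. Their 95% intervals together spanned -0.27 to 0.15. Ttc8 had the smallest p of the 8. It stood at 34.1 and 36.6 FPKM in wildtype, 37.6 and 36.8 FPKM in heterozygous and 34.4, 32.3 and 33.4 FPKM in knockout libraries. The knockout libraries of Ttc8 overlapped wildtype 1 and lay below heterozygous, and the difference from all controls was -0.12 ± 0.05 (adjusted p = 0.406). Leaving out heterozygous 2 left 5 of the 8 subunits below 0, and leaving out knockout 2 left 6. The mean over the 8 subunits was 26.5 ± 0.402 FPKM in knockout (n = 3) and 27.7 ± 1.07 FPKM in controls (n = 4), which overlapped (exact two-sided permutation p = 0.171).

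A ratio within a library does not depend on how libraries are scaled. Arl6 over the mean of the 8 core subunits was 1.56 and 1.77 in wildtype, 1.68 and 1.84 in heterozygous and 2.45, 2.67 and 2.56 in knockout libraries. The groups did not overlap, and the ratio was 2.56 ± 0.112 in knockout (n = 3) and 1.71 ± 0.120 in controls (n = 4). The exact two-sided permutation p was 0.0571, the smallest that 3 against 4 libraries allow. Arl6 itself already lay apart between these groups and the core mean varied little, so this p is not a test separate from the Arl6 difference. Arl6 was above Bbs2 in 6 of 7 libraries and below it in wildtype 1.

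**Figure D2:**
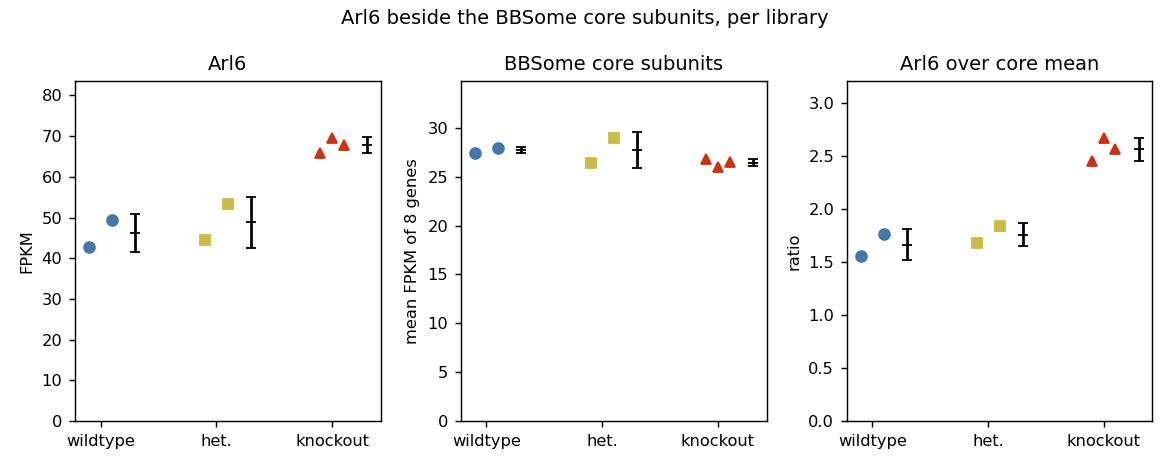
FPKM of Arl6, mean FPKM of the 8 core subunits and the ratio of both, per library and genotype, with mean and SD beside the points. The core mean lies between 26.1 and 29.0 FPKM throughout, while the ratio is 1.56 to 1.84 in controls and 2.45 to 2.67 in knockout libraries.

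The chaperonin-like genes, whose products fold and assemble the BBSome, were not called, and Mkks and Bbs10 were the lowest of the class. Bbs12 stood at 17.6 and 18.81 FPKM in wildtype, 18.1 and 18.2 FPKM in heterozygous and 18.84, 19.4 and 19.0 FPKM in knockout libraries. Its knockout libraries were above all controls by a narrow margin, with a difference of 0.07 ± 0.04 (adjusted p = 0.574). Bbs10, the lowest of the class, stood at 4.66 and 4.83 FPKM in wildtype, 4.67 and 3.84 FPKM in heterozygous and 4.21, 4.16 and 4.13 FPKM in knockout libraries. Knockout lay below wildtype but not below heterozygous for Bbs10, and the difference from all controls was -0.09 ± 0.08 (adjusted p = 0.688). Mkks, the BBS6 gene, ranged from 4.50 FPKM in heterozygous 1 to 6.72 FPKM in wildtype 1, and 29.3% of its exon bases overlap 3 other genes, of which 1 is on the opposite strand. Lztfl1, which restrains the entry of the BBSome into the cilium, had means of 8.38 FPKM in wildtype and 7.25 FPKM in knockout, with an interval of the difference from all controls of -0.35 to 0.02.

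In the transition zone class no member was called in any comparison. Against all controls limma called 0 of 20, and voom on recovered reads 0 of 19. Unadjusted p-values under 0.05 were found for 2 of the 20, Nphp4 and Tmem216, and for 12.2% of all tested genes. The differences ran from -0.24 to 0.35, with a median of -0.01, beside 0.00 for all tested genes. Of the 20 members, 19 differed by less than 0.25 in log2, against 86.2% of all tested genes. For the BBSome class the median was -0.06 and 12 of 13 were within that bound.

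Nphp4 had the largest difference of the class. Nephrocystin-4 is a scaffold of the NPHP module, which is linked to the nephronophthisis and Senior-Loken syndromes. Its transcript stood at 10.6 and 9.26 FPKM in wildtype, 7.70 and 11.3 FPKM in heterozygous and 11.9, 13.3 and 12.3 FPKM in knockout libraries. Every knockout library was above every control, with heterozygous 2 close below. The difference from all controls was 0.35 ± 0.12 (95% interval 0.07 to 0.62; adjusted p = 0.32), and it was 0.31 ± 0.15 against wildtype (adjusted p = 0.736). Heterozygous 1, a lens-rich library, had the lowest value, and without it the difference from all controls was 0.25 (adjusted p = 0.319).

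Iqcb1 was the one member with every knockout library below every control. It encodes NPHP5, a partner of CEP290 whose loss causes Senior-Loken syndrome. The level was 5.23 and 5.56 FPKM in wildtype, 5.09 and 5.10 FPKM in heterozygous and 4.59, 4.95 and 4.83 FPKM in knockout libraries. The gap to heterozygous was small and the difference from all controls was -0.11 ± 0.06 (adjusted p = 0.494). Knockout and controls did not overlap for 4 of the 33 members (Arl6, Nphp4 and Bbs12 higher, Iqcb1 lower), that is 12.1%, and for 13% of all tested genes, 6.75% higher and 6.26% lower.

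Cep290, a frequent cause of Leber congenital amaurosis, did not differ beyond the spread: its means were 19.0 ± 1.51, 18.5 ± 0.986 and 18.8 ± 1.15 FPKM in wildtype, heterozygous and knockout, and the interval of its difference from all controls ran from -0.14 to 0.16. Rpgrip1l, a scaffold at the base of the gate, and Sdccag8, a centrosomal protein, had intervals of -0.27 to 0.17 and -0.18 to 0.22. Invs, the inversin gene, had the lowest FPKM of all members, over a merged exon length of 11431 bases. It stood at 1.58 and 1.62 FPKM in wildtype, 1.43 and 1.53 FPKM in heterozygous and 1.60, 1.32 and 1.32 FPKM in knockout libraries, on 207 to 280 reads. Knockout overlapped both control genotypes, and heterozygous lay below wildtype. The difference of knockout from all controls was -0.08 ± 0.09 (adjusted p = 0.78).

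Among the 12 genes of the MKS complex the differences between knockout and all controls lay between -0.24 and 0.17. Ahi1, which encodes jouberin and was the highest of the class, stood at 33.5 and 36.9 FPKM in wildtype, 33.3 and 33.1 FPKM in heterozygous and 30.1, 31.2 and 33.9 FPKM in knockout libraries. Knockout 3 lay within the controls, and the difference was -0.11 ± 0.06 (adjusted p = 0.522). Cc2d2a, whose product anchors the complex near the membrane, had means of 27.1, 26.1 and 23.6 FPKM in wildtype, heterozygous and knockout (difference from all controls -0.16, interval -0.36 to 0.04). The tectonic genes Tctn1, Tctn2 and Tctn3 had wildtype means of 6.75, 6.06 and 15.6 FPKM, and the B9 domain genes B9d1 and B9d2 11.2 and 13.3 FPKM. B9d2 differed between libraries of 1 genotype, with 9.06 FPKM in heterozygous 1 and 14.4 FPKM in heterozygous 2. Mks1, Tmem67 and Tmem231 had intervals of -0.15 to 0.18, -0.18 to 0.14 and -0.23 to 0.19.

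For Tmem216 and Tmem237, 2 membrane protein genes of the complex, the heterozygous mean stood farther from wildtype than the knockout mean did. The same held in this complex for Tmem67, Tmem231, Tctn2, Tctn3, B9d2 and Mks1. Outside it the same held for Cep290, Sdccag8, Lca5, Bbs4, Bbip1 and Mkks, so it was not particular to these 2 genes. Tmem216 stood at 8.75 and 8.08 FPKM in wildtype, 10.3 and 9.80 FPKM in heterozygous and 6.96, 8.32 and 7.62 FPKM in knockout libraries. Heterozygous was the highest group of Tmem216 without overlap, and knockout overlapped wildtype. The difference of knockout from heterozygous was -0.36 ± 0.09 (unadjusted p = 0.00488, adjusted p = 0.253), and that of heterozygous from wildtype 0.23 ± 0.10 (adjusted p = 0.974). Tmem237 stood at 28.2 and 28.5 FPKM in wildtype, 22.8 and 24.9 FPKM in heterozygous and 26.4, 25.0 and 24.6 FPKM in knockout libraries. Wildtype was the highest group of Tmem237 without overlap, and heterozygous differed from it by -0.24 ± 0.07 (adjusted p = 0.974) and knockout by -0.16 ± 0.06 (adjusted p = 0.648). Between heterozygous and wildtype limma called 0 of the 33 members and 0% of all tested genes, and voom called none of the members it held. For Tmem216 and Tmem237 the unadjusted p was under 0.05, beside 4% of all tested genes. Heterozygous and wildtype did not overlap for 2 of 13 BBSome genes (1 higher, 1 lower). They did not overlap for 8 of 20 transition zone genes (2 higher, 6 lower), beside 30% of all tested genes (14.3% higher, 15.7% lower).

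**Figure D3:**
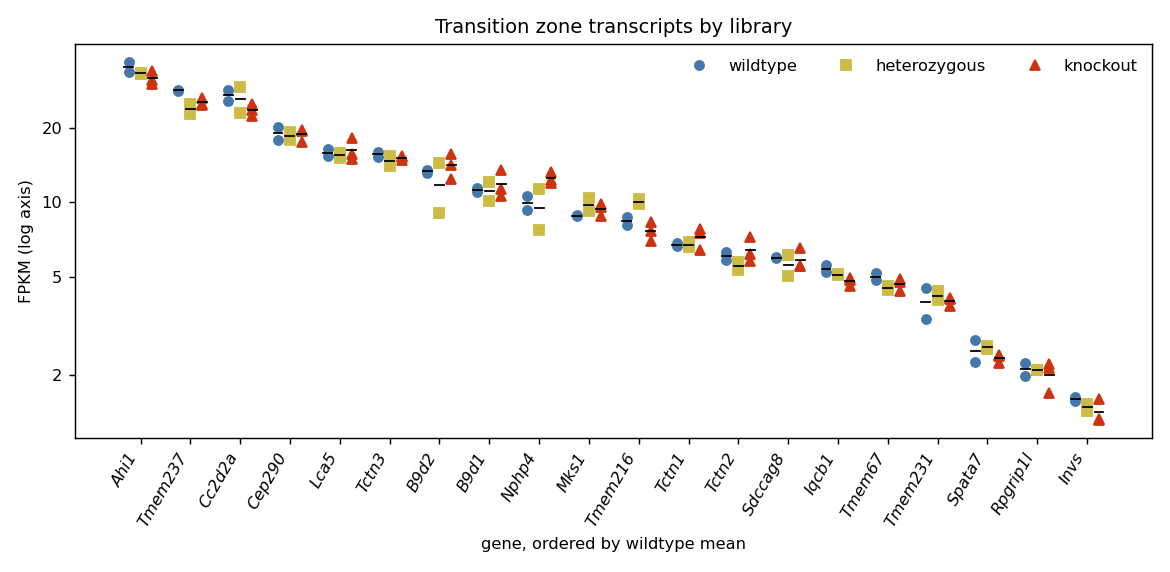
FPKM on a log axis for each of the 20 transition zone genes, 1 symbol per library by genotype, with short lines at the means. Levels run from above 30 FPKM for Ahi1 to under 2 FPKM for Invs. Knockout and pooled control libraries overlap for all genes but Nphp4, higher in knockout, and Iqcb1, lower in knockout.

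**Figure D4:**
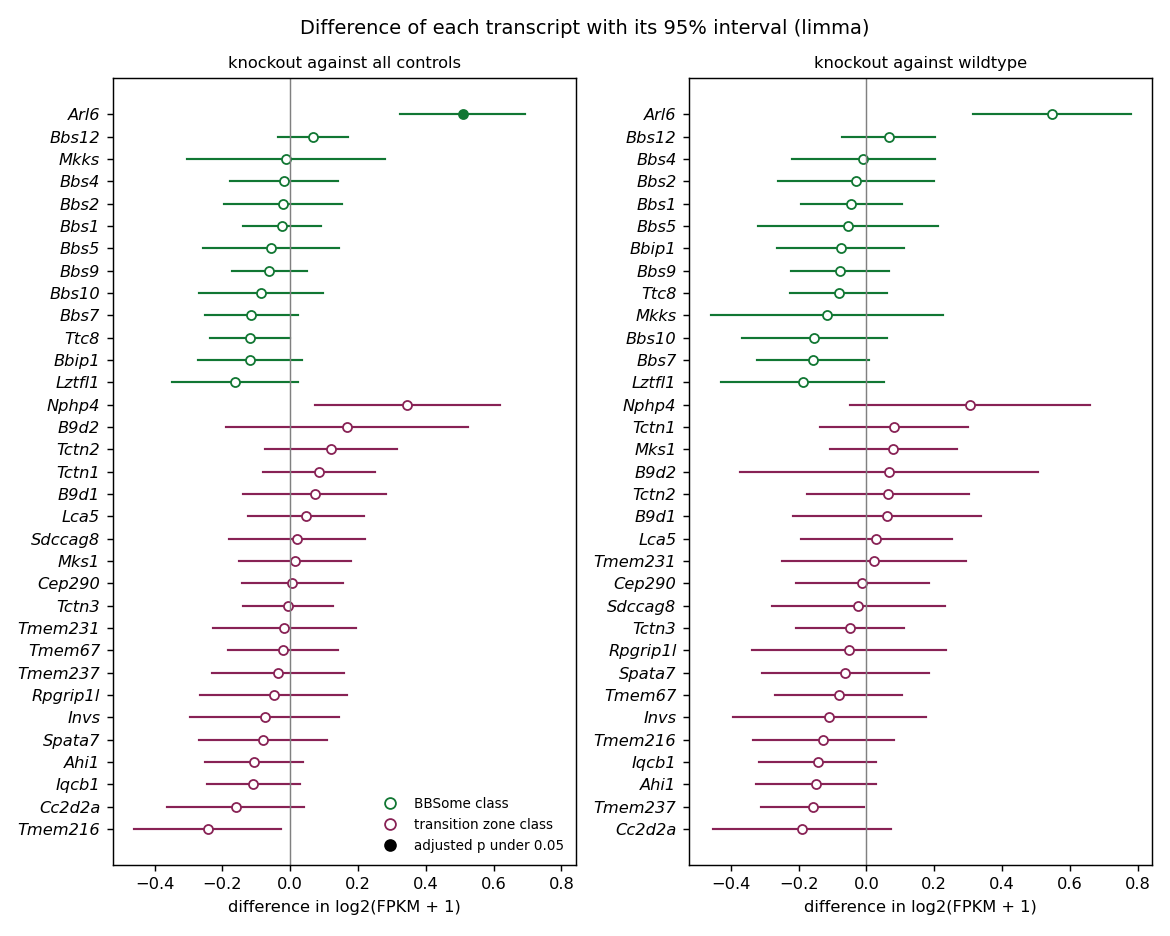
Difference in log2(FPKM + 1) between knockout and all controls (left) and between knockout and wildtype (right) with 95% intervals from limma, BBSome class in green and transition zone class in purple, filled where the adjusted p is under 0.05. Arl6 at 0.51 on the left is the filled point, and most other intervals span 0.

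The photoreceptor cilium genes were at different FPKM levels, over merged exon lengths of 6306 bases for Lca5 and 10088 bases for Spata7. Lca5, which encodes lebercilin of the connecting cilium and axoneme, had means of 15.9, 15.5 and 16.3 FPKM in wildtype, heterozygous and knockout. Spata7, needed for the part of the connecting cilium found in photoreceptors alone, had means of 2.51, 2.59 and 2.36 FPKM. Intervals of their differences from all controls were -0.12 to 0.22 and -0.27 to 0.11.

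Against wildtype alone limma called 0 of the 33 members and 0.323% of all tested genes (0.265% higher, 0.0582% lower). Voom, which called 77 of its 14787 genes there, called Arl6. The unadjusted p was under 0.05 for Arl6 and Tmem237, beside 7.5% of all tested genes. Knockout and wildtype did not overlap for 6 of 13 BBSome genes (2 higher, 4 lower) and 4 of 20 transition zone genes (1 higher, 3 lower), beside 28.2% of all tested genes (13.5% higher, 14.7% lower). Against heterozygous alone limma called 0 members and 0.317% of all tested genes (0.271% higher, 0.0452% lower), and voom called none of the members it held. Groups did not overlap there for 4 of 13 and 5 of 20 members, beside 29.8% of all tested genes. The members at an unadjusted p under 0.05 were there Arl6, Ttc8, Nphp4 and Tmem216, beside 12% of all tested genes.

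The coefficient of variation over the 7 libraries had a median of 6.80% in the BBSome class and 8.24% in the transition zone class, beside 10.8% for all tested genes and 10.2% for the 13440 tested genes within the members' range of mean level. Arl6, at 20.3%, and Nphp4, at 17.5%, varied most in their classes, and Bbs12, at 3.39%, and Tctn3, at 4.24%, least. The lens-rich libraries held the lowest value of 20 members, 10 in heterozygous 1 and 10 in knockout 1. This count was not set against all tested genes. In heterozygous 1 the members lay below heterozygous 2 in 9 of 13 BBSome and 14 of 20 transition zone genes, beside 50.3% of all tested genes. In knockout 1 the counts below the mean of the other knockout libraries were 6 of 13 and 12 of 20, beside 51.7%. What part lens RNA has in these values was not tested.

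Other genes of the cilium gate, BBSome transport and the ciliary base were given as a list of 32, of which 31 passed the filter. Limma called 0 of the 31 against all controls, beside 0.614% of all tested genes, and voom called 0 of 29. The median difference was 0.03, and 4 genes had an unadjusted p below 0.05, beside 12.2% of all tested genes. Arl13b did so against wildtype, beside 7.5% of all tested genes. Tulp3, an adaptor that brings receptors to the cilium, had a mean of 3.91 FPKM in knockout and of 3.22 FPKM in controls (0.22 ± 0.07, adjusted p = 0.313). Cep83, of the distal appendages that dock the cilium, ranged from 2.74 to 2.76 FPKM in the knockout libraries and from 3.11 to 3.23 FPKM in the controls (-0.16 ± 0.06, adjusted p = 0.382). Ofd1, of the centriole end, had means of 7.55 and 8.36 FPKM (-0.13 ± 0.05, adjusted p = 0.4). Hspb11, the IFT25 gene, whose product with IFT27 moves the BBSome out of the cilium, had means of 2.99 FPKM in wildtype, 4.07 FPKM in heterozygous and 2.68 FPKM in knockout (knockout against all controls -0.29 ± 0.12, adjusted p = 0.402). Arl13b, another ciliary GTPase gene, had means of 15.6, 13.3 and 13.7 FPKM, and the difference of knockout from wildtype was -0.18 ± 0.07 (adjusted p = 0.616).

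A feature of sequence that the list did not use was frequent at the starts of these genes. RFX transcription factors, regulators of ciliary genes, bind a motif called the X-box, made of a pair of inverted repeats. The pattern searched was GTNNCC, then 0 to 3 bases, then NGNAAC, on both strands, in the RefSeq windows from 250 bases before to 50 bases after each listed start (GRCm38.p6). It was found for 4 of the 13 BBSome genes and for 11 of the 18 transition zone genes with a window (61.1%), beside 5.94% of all 27025 genes with a window and 6.97% of 10227 tested genes. Sdccag8 and Tmem67 had no entry. Shown are the matches of the 4 BBSome genes, with the upstream one of Lztfl1, and those of the 4 transition zone genes with a match whose values are given in every library, so that the sites can be compared. Each is printed on the gene's own strand with 7 flanking bases in lower case and the match in capitals. They lie at chr3:36613490-36613517 (Bbs7), chr19:4906606-4906633 (Bbs1), chr9:59353465-59353492 (Bbs4), chr9:123717768-123717796 (Lztfl1), chr1:59120103-59120130 (Tmem237), chr19:10555724-10555751 (Tmem216), chr10:20952561-20952588 (Ahi1) and chr4:152477904-152477931 (Nphp4), with Ahi1 and Nphp4 on the plus strand and the others on the minus strand.
Bbs7: cgccccgGTTGCCTTGGAAACcggccag
Bbs1: tgagctgGTTGCCAAGGCGACgcctggg
Bbs4: tcagctgGTCGCCCGGGAAACggtcggc
Lztfl1: tttctctGTTGCCATTGGCAACggcaggc
Tmem237: agtcagcGTTGCCATGGCGACgcctccg
Tmem216: gtacgcaGTTTCCATGGGGACtgaacat
Ahi1: agtctgaGTTACCTAGGCAACagcggca
Nphp4: ggtgcccGTCTCCTAGGTAACgcgccag

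Of all 16 matches, most had 2 bases between the repeats, Lztfl1 and Lca5 had 3 and Tctn3 had 1. In Bbs7, Lztfl1, Mks1, Ahi1, Tctn1 and Tctn3 both strands matched the pattern. In Bbs1, Tmem237, Tctn2, Tmem231 and Tmem216 the strand opposite to the gene matched. Lztfl1 had a further match, not printed, just after its start. Neither of the 2 windows listed for Arl6 held these letters. Of the other gate genes, 5 of 28 with a window had a match. A match is a run of letters and not evidence of binding. A gene with several listed starts has several windows, so more sequence was searched for it. The mean number of windows was 1.08 in the BBSome class, 1.44 in the transition zone class and 1.22 for all genes.

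**Figure D5:**
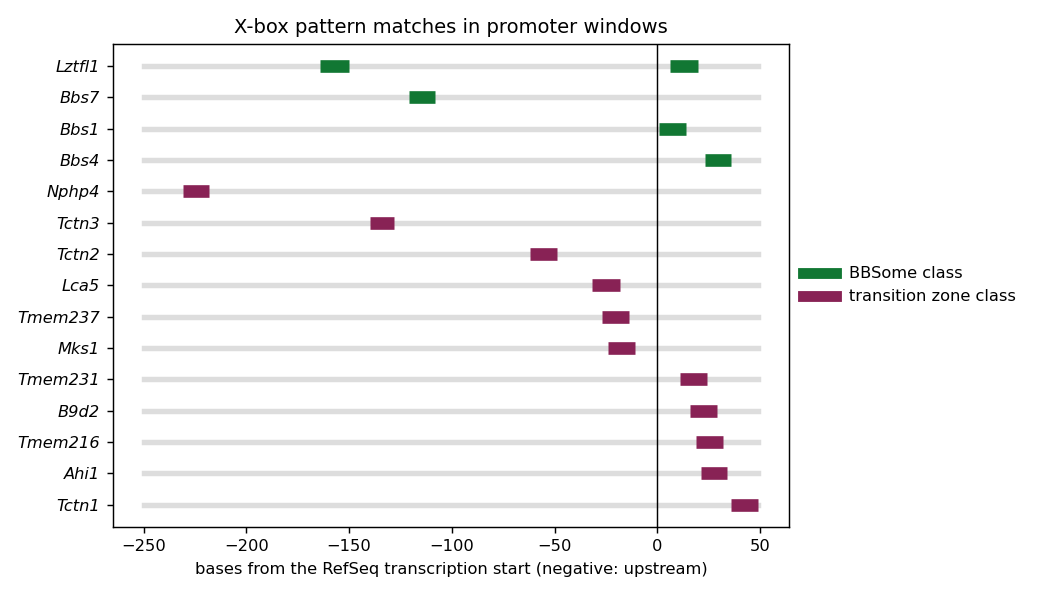
Position of each X-box pattern match, in bases from the RefSeq start, in the 15 members that have one; grey bars are the windows, from 250 bases before to 50 after the start. Of the 16 matches shown, those of Nphp4, Tctn3 and Bbs7 and 1 of Lztfl1 lie farthest upstream, between -231 and -121.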

How the data were processed

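The authors deposited a single table of FPKM per gene for 7 libraries. Per the submitters' processing notes, TopHat2 2.0.9, Bowtie2 2.0.6, HTSeq and DESeq were among the tools and mm10 and GRCm38 the builds, but their order, settings and annotation are not given in the sources used here. Groups came from the genotype labels. The 33 members and all other lists were chosen with earlier results of these data known.

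FPKM was taken as log2(FPKM + 1), a mean of 1 FPKM or more was required of a gene (15472 passed), and limma 3.58.1 in R 4.3.3 was fitted with a trend over all of them, once with 3 genotypes (4 residual degrees of freedom) and once with knockout against all controls (5). P-values were adjusted by Benjamini-Hochberg over all genes tested, with a threshold of 0.05. The log2 difference of a low gene is understated by the added 1. Single values were compared with exact permutation tests. The fit was tested on simulated data.

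FPKM times the exon length of GENCODE M21 gave whole reads, within 0.01, for 96.8% of the values above 0, and 32116 genes came out whole in every library. The limma-voom fit on these reads was an alternative and holds 30 of the 33 members, without Bbs1, Bbip1 and Tmem216. Each of 13 members shares exon bases with an overlapping gene on the opposite strand, whose reads cannot be told apart without strand, and for 3 of them (Mkks, Tctn1 and Tmem237) all overlapping genes cover more than 10%.

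Named with the value in every library were members called or at an unadjusted p under 0.05 in any comparison, members whose knockout libraries lay apart from all controls, and the highest and the lowest member of each class. Bbs2, as the highest core subunit, was added after its values were seen. The other members are given by means or intervals. Alternatives covered the added constant, the filter, TPM, voom, the replicate block, lens RNA and each library left out. TPM without Gm23935 and a term for the Y-linked gene Ddx3y were added after seeing the data. One marker gene is not reported here.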

Additional observations from a re-analysis of the deposited data

Results flagged for a closer look

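Among the 4 control libraries, taken as 1 group for each of the 33 members, a single library lay far from the other 3 by Dixon's test for 3 members. Bbs1 stood at 24.94 FPKM in heterozygous 1 and at 26.3 to 26.6 FPKM in the other controls. Bbs10 stood at 3.845 FPKM in heterozygous 2 and at 4.66 to 4.83 FPKM in the others. Ahi1 stood at 36.93 FPKM in wildtype 2 and at 33.1 to 33.5 FPKM in the others. Chance gives about 1 such library in 20 groups, that is 1.65 of 33.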

How the results depend on the processing

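The groups of 2 and 3 libraries limit what can be called, and low members rest on few reads, such as Bbs10 with 153 to 222 per library and Invs with 207 to 280. No difference of a member reversed its sign while called. Between knockout and all controls, the BBSome class had 1 member called, Arl6, and 0 without the filter, on the TPM scale, with the replicate block, without both lens-rich libraries, on TPM without Gm23935 or with the Y-linked term. Leaving out 1 library gave 0 to 1. Against wildtype its count was 0, and 1 with voom. The transition zone class had 0 called under all 16 alternatives of the 4 comparisons.

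Over all genes, knockout against wildtype gave 50 calls, and 28 on the TPM scale, 77 with voom, 3 with the replicate block, 3 without both lens-rich libraries, 28 with lens level as a covariate and 33 with the Y-linked term, and 5 to 53 with 1 library left out. Knockout against all controls gave 95, and 63 on the TPM scale, 147 with voom, 38 with the replicate block, 48 without both lens-rich libraries and 45 to 90 with 1 left out. Knockout against heterozygous gave 49, and 76 with voom, 0 with the replicate block, 0 without both lens-rich libraries and 14 to 40 with 1 left out. Heterozygous against wildtype gave 0, 19 without the filter and 0 to 3 with 1 left out. Where these differ, the cause was not tested.

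With the replicate block the Arl6 difference from all controls was 0.51 (limma, adjusted p = 0.101). The replicate numbers were not shown to pair libraries. Over all tested genes, deviations of same-numbered libraries from their group means correlated at -0.018 for wildtype with heterozygous. For wildtype with knockout they correlated at 0.092 and -0.023. For heterozygous with knockout the values were 0.43 and 0.271, where both lens-rich libraries carry the number 1. Of differently numbered pairs, heterozygous 2 was at 0.253 with knockout 3 and at -0.43 with knockout 1. In a group of 2 libraries the deviations mirror each other, so these values are not separate checks. The TPM scale moved the median of all genes to -0.12 between knockout and all controls, and that of the BBSome class to -0.18 and of the transition zone class to -0.13. Gm23935 held from 2.16% of the FPKM sum in wildtype 2 to 17.2% in knockout 1. On TPM without Gm23935 the median of all genes was -0.01. Against heterozygous the transition zone median was 0.03, and -0.05 on the TPM scale.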
